A study of Mus musculus with 23 samples.

Results

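The lines that received no numbered type, labelled Other (7 lines), were set against the Type 3 lines (8 lines), which together make 15 of the 23 clonal preadipocyte lines analysed here. Members were taken by the adipocyte type given in the labels. Every line of both groups came from the stromal vascular fraction, the non-fat cells of adipose tissue, of 1 male Immortomouse aged 8 weeks. In this strain a temperature-sensitive viral T antigen under a major histocompatibility class I promoter, which interferon gamma raises, keeps cells dividing. Cells of subcutaneous and perigonadal fat were sorted singly and without a gate after 2 passages (190 cells in all). Both groups were then expanded as clones in medium with interferon gamma (10 units/mL) and at a temperature of 33 °C. Other held 4 lines whose clone name begins with SCF (lines 1 to 4) and 3 with PGF (lines 5 to 7). Type 3 held 4 SCF (lines 1 to 4) and 4 PGF lines (lines 5 to 8). SCF was taken to mean subcutaneous and PGF perigonadal fat. Depot was balanced between the groups (Fisher's exact test, two-sided, p = 1).

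One array was run per line, from 250 ng of total RNA. The sources used here do not say whether the cells were differentiated before RNA was taken. The submitters had clustered the expression data to form the groups, so differences between them describe the groups and are no independent evidence that they exist. Since a single mouse gave every line, a p-value here refers to variation among clones and not among animals. All levels are deposited log2 signal, where a difference of 1 is 2-fold. Differences are the mean of Other minus the mean of Type 3 with the SE of the fit, over 12307 genes that lay above the median of the whole table (5.13) in at least 3 lines.

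The labelled cell type was checked against marker genes. The preadipocyte markers Pdgfra, Pdgfrb, Dlk1 and Cd44 lay above the table median in all 15 lines. Cd34, also on that list, ran from 3.75 to 10.66 in Other and from 4.89 to 10.85 in Type 3. Thy1 ran from 5.23 to 10.50 in Other and from 5.09 to 10.23 in Type 3. Both were thus below the table median in at least 1 line. The leukocyte markers Ptprc, Adgre1, Itgam and Tyrobp, the endothelial markers Pecam1, Cdh5, Tie1 and Emcn, the mesothelial markers Msln and Lrrn4, and the adipocyte genes Lep and Cidec lay below it in all 15. Csf1r, Kdr, Tek, Upk1b and Retn, each on one of those lists, lay above it in all 15. So did Epcam (epithelial), Cspg4 and Notch3 (pericyte), Ckm and Acta1 (skeletal muscle) and Sox10 (Schwann). Cdh1 and Krt14 (epithelial), Rgs5 (pericyte) and Pax7, Myf5 and Myod1 (skeletal muscle) lay below it in all 15. Adipoq, also on the adipocyte list, ran from 2.72 to 3.30 in Other and from 3.00 to 6.48 in Type 3. It thus lay above the table median in at least 1 Type 3 line. Among the other mesothelial markers, Krt19 ran from 5.52 to 9.76 in Other and from 4.96 to 7.44 in Type 3. Upk3b reached 7.08 and Krt18 6.11 in Other, against 4.77 and 3.61 in Type 3. Wt1 and Krt8 reached 4.67 and 5.18 in Other, and 5.24 and 5.06 in Type 3. The leukocyte marker Cd68 ran from 4.96 to 7.09 in Other and from 4.12 to 6.02 in Type 3. For Lyz2 the ranges were 4.49 to 5.47 and 4.66 to 5.40. The signal of the 3′ actin control probe set exceeded that of the 5′ one by 0.53 to 1.00 in the 15 lines, a measure of how intact the RNA was.

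Some lines stood apart from their group. Type 3 line 4 differed at least 2-fold from the mean of the other Type 3 lines in 842 genes, against 132 to 238 for those other lines, and had an array weight of 0.309 (a weight of 1 is average). Among the Other lines, line 7 was at least 2-fold from the Type 3 mean in 944 genes, line 6 in 703 and the remaining lines in 154 to 424. Values without one of these 3 lines are given below beside the genes whose printed difference over all lines moved by over 1.5 times.

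Preadipocytes are fibroblast-like progenitors that become fat cells when Pparg and the C/EBP transcription factors are switched on. Like other fibroblasts they respond to interferons. Interferon gamma acts on promoters that hold gamma-activated sites or interferon-stimulated response elements, and it raises antigen presentation genes and the chemokines Cxcl9 and Cxcl10. Type I interferons act on the same response elements and raise antiviral genes such as Rsad2, Ifit2 and Mx1.

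Promoters of 4 interferon-response genes are shown, from lists in which every gene tested had the higher mean in Other, as described below. All 4 windows hold the core letters of the interferon-stimulated response element, which follows from the choice, since windows without them were left out. The windows of Upp1, Ifit2, Cmpk2, Oasl1 and Isg20, also on these lists, held no such match and are not shown. The windows are RefSeq sequences of assembly GRCm38.p6, 300 bases long, running 5′ to 3′ on the gene's strand across the transcription start site. Capitals mark matches to GAAANNGAA, part of the interferon-stimulated response element, or to GGANTTTCC, a form of the kappa B site that NF-kappa B binds. The windows lie at chr19:29367188-29367487 (plus strand) for Cd274, chr5:92328030-92328329 (minus strand) for Cxcl9, chr5:92348840-92349139 (minus strand) for Cxcl10 and chr12:26456403-26456702 (minus strand) for Rsad2.
Cd274: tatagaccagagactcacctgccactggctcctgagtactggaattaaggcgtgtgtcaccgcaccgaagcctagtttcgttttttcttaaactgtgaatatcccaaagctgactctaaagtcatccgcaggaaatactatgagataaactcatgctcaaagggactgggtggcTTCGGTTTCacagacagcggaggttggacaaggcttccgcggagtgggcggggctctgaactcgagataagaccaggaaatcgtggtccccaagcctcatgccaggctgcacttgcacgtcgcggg
Cxcl9: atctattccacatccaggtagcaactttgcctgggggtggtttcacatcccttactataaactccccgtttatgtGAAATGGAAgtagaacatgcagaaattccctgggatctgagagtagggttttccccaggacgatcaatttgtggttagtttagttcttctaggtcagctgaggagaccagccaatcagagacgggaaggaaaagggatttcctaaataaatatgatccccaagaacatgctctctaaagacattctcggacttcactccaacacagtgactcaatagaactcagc
Cxcl10: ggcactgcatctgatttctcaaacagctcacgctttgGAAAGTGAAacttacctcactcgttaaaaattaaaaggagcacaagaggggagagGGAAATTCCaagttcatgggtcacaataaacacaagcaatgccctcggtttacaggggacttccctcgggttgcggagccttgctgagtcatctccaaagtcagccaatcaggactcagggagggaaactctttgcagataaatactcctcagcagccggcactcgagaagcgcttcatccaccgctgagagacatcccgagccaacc
Rsad2: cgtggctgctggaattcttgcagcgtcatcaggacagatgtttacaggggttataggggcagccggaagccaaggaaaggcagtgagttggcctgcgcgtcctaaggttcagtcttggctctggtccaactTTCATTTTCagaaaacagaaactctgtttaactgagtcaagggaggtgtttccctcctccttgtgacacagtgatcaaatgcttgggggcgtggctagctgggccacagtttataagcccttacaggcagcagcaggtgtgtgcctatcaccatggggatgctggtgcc

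The Cxcl10 window held the response element letters as GAAAGTGAA at position -213 (the first base of the match, counted from the start site as 0) and a kappa B match, GGAAATTCC on the other strand, at -158. The Rsad2 window held the response element letters on the other strand, read as TTCATTTTC, at position -119. The Cd274 window held them on the other strand as TTCGGTTTC at -76, and the Cxcl9 window as GAAATGGAA at -175. The gamma-activated site TTCNNNGAA was in none of these 4 windows, but it was in a window of Ifit2 and of Isg20, which are not shown. Both strands were searched, TTCNNNGAA reads the same on both, and the motifs may overlap each other. Over all 32851 windows, 8.56% held GAAANNGAA, 8.3% TTCNNNGAA and 1.25% GGANTTTCC. Of the interferon-gamma response genes tested (24), 16 had a window and 10 of these (62.5%) held GAAANNGAA. Of the type I interferon genes tested (29), 19 had a window and 11 (57.9%) held it. Counted over genes with a window, 9.76% of 27025 held it. Among the respiratory chain genes 4 of 23 did. TTCNNNGAA was held by 6 of the 16 interferon-gamma genes (37.5%) and 5 of the 19 type I genes (26.3%). Over all genes with a window 9.55% held it, and 2 of the 23 respiratory chain genes. A match is a description of letters and not of bound protein.

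Each line carries 2 scores in the labels, for differentiation and for acidification of the medium, both from 1 to 4. Adipogenic capacity was read from lipid staining after induction. Which end of the acidification scale is more acid is not stated in the sources used here. Of the Other lines, 5 scored 1 for acidification and 2 (lines 4 and 6) scored 4. Of the Type 3 lines, 5 scored 3, and 1 line each scored 1, 2 and 4. The Other lines therefore sat at both ends of the scale and the Type 3 lines mostly at 3. Mean acidification was 1.86 ± 1.46 (SD, n = 7) in Other and 2.75 ± 0.89 (n = 8) in Type 3, a difference of -0.89 (exact two-sided permutation test over 6435 splits, p = 0.209, adjusted over both scores p = 0.418). The difference was -1.5 over the SCF lines (exact permutation p = 0.143, n = 4 and 4) and -0.25 over the PGF lines (exact permutation p = 1, n = 3 and 4, a design in which the smallest p is 0.0571). Mean differentiation was 2.71 ± 0.76 in Other and 3.00 ± 0.76 in Type 3, a difference of -0.29 (exact permutation p = 0.51). Neither difference had a permutation p below 0.05.

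**Figure D1:**
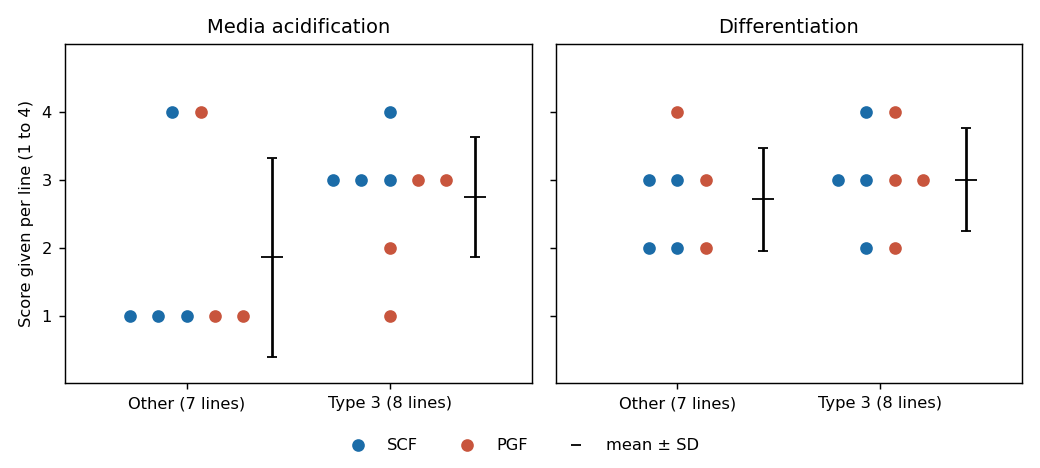
Media acidification score (left) and differentiation score (right), each on the labels' scale of 1 to 4, for 7 Other and 8 Type 3 lines; points are lines, coloured by depot, and bars are mean and SD. Other lines lie at 1 or 4 for acidification, and 5 of the 8 Type 3 lines lie at 3.

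Across all genes, no gene passed between Other and Type 3. Of 12307 genes, 0 (0%) had an adjusted p below 0.05 in limma, and the smallest adjusted p was 0.483. At an unadjusted p below 0.05 there were 1083 genes, 8.8% of those tested, of which 513 were higher in Other (4.17%) and 570 lower (4.63%). The mean was higher in Other for 5888 genes (47.8%) and lower for 6419 (52.2%), and the median difference over all genes was -0.01. Means differed at least 2-fold upward in 36 genes (0.293%) and downward in 35 (0.284%). The 95% interval of the difference lay within 2-fold for 11460 genes (93.1%) and within 1.5-fold for 10022 (81.4%). A 2-fold difference between the group means thus lay outside the interval for most genes, but not for the others. The values below are descriptions of genes and lists and none is a call, except those within the PGF lines. Counts of list members stand beside the shares over all genes: 47.8% with the higher mean in Other and 52.2% with the lower. At an unadjusted p below 0.05 these shares were 4.17% and 4.63%.

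Interferon-response genes made up the only lists, of 50, in which every gene tested had the same sign. Of 30 interferon-gamma response genes 24 were tested (the other 6 had no probe set with a single symbol), and all 24 had the higher mean in Other, with a median difference of 0.56, and 6 had an unadjusted p below 0.05. Of 33 type I interferon genes 29 were tested, and all 29 had the higher mean in Other, with a median of 0.60, and 13 had an unadjusted p below 0.05. Both counts stand beside 47.8% of all genes with a higher mean and 4.17% with an unadjusted p below 0.05 and a higher mean. The lists share 0 genes. Genes of a list can move together within a line, so their count is not a count of independent observations.

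A single line held much of the interferon-gamma difference. A list's level in a line is the mean of its genes after each was centred over all lines. For the interferon-gamma list Type 3 line 4 stood at -2.14, the lowest of the 15 lines, and for the type I list at -1.61. Other line 6 was the highest of the Other lines in both, at 0.93 and 1.21. Without Type 3 line 4 the interferon-gamma median was 0.19, with 21 of 24 genes higher in Other. The type I median was then 0.37, with all 29 still higher and 8 at an unadjusted p below 0.05. Leaving out Other line 6 instead gave a type I median of 0.45 and 4 genes at an unadjusted p below 0.05. Without Other line 7 the type I median was 0.73, with 23 of 29 at an unadjusted p below 0.05. By depot, the interferon-gamma median was 0.82 over the SCF and 0.32 over the PGF lines, and the type I median 0.73 and 0.49. In the PGF lines alone 20 of 24 interferon-gamma and 28 of 29 type I genes were higher in Other. In the SCF lines alone all were, with 2 and 0 at an unadjusted p below 0.05 in limma. With array weights the medians were 0.25 and 0.42, with 4 such genes in each list. With the acidification score in the model the type I list had 21 such genes.

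**Figure D2:**
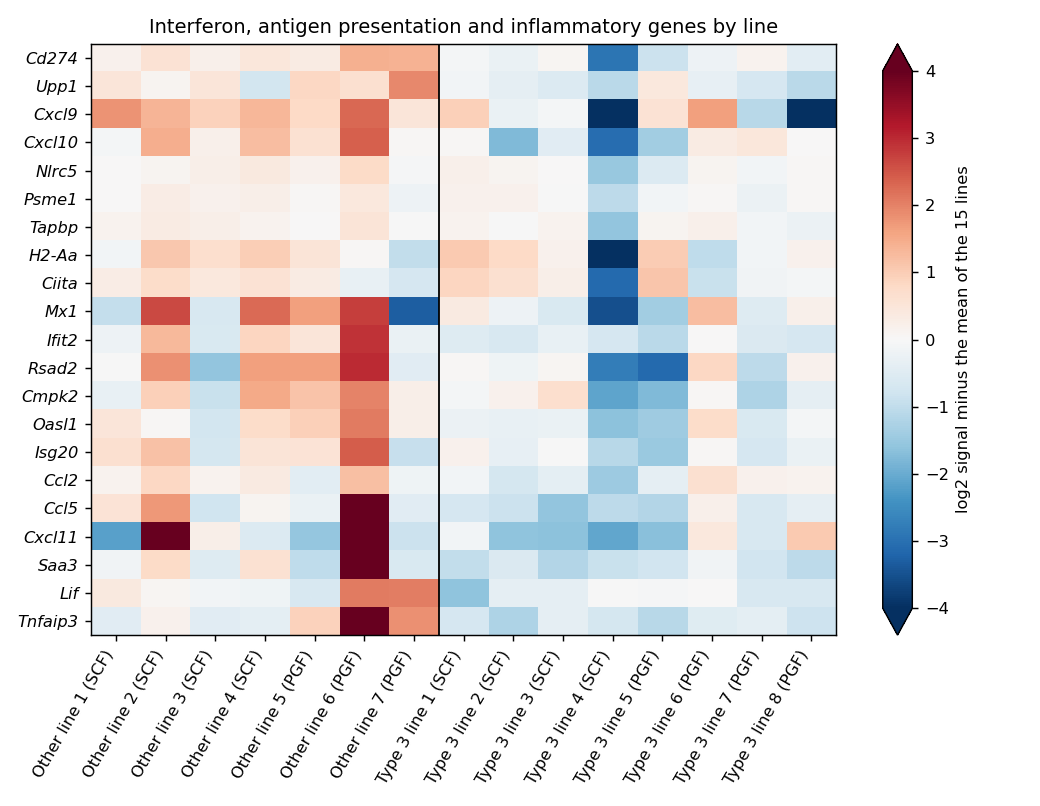
Levels of interferon-response, antigen presentation, chemokine and inflammatory genes (1 gene in each horizontal band) in the 7 Other and 8 Type 3 lines (columns, with depot), as log2 signal minus the mean of the 15 lines, coloured up to a difference of 4. Type 3 line 4 is below the mean and Other line 6 above it in most of the genes drawn.

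Among the interferon-gamma response genes, Cd274, which encodes the checkpoint ligand PD-L1, was the only gene tested with every Other line above every Type 3 line (1 gene, 0.00813% of those tested). Of the 6435 ways to split the lines 7 against 8, 1 gives this order, so such a gene can arise by chance among 12307. Cd274 lay from 8.27 to 9.55 (median 8.55) in Other and from 5.19 to 8.26 (median 7.86) in Type 3, with the lowest Other line barely above the highest Type 3 line. The difference was 1.21 ± 0.35 (limma, unadjusted p = 0.00204, adjusted p = 0.493), and 0.88 without Type 3 line 4, the lowest at 5.19. Cxcl9, a chemokine that draws T cells, lay from 11.89 to 13.70 (median 12.75) in Other and from 5.40 to 13.03 (median 11.23) in Type 3. All 7 Other lines were at 11.89 or above, while Type 3 lines 4 and 8 were at 6.72 and 5.40, and other Type 3 lines overlapped with Other. Its difference of 2.41 ± 0.92 (limma, unadjusted p = 0.0154) was the largest upward one of all genes tested. Cxcl10, a chemokine for the same receptor, lay from 11.10 to 13.56 (median 11.78) in Other and from 8.12 to 11.63 (median 10.96) in Type 3, a difference of 1.56 ± 0.51 (unadjusted p = 0.00591). The groups overlapped, with 4 Type 3 lines above the lowest Other line. Upp1, a uridine phosphorylase, lay from 5.23 to 7.87 (median 6.44) in Other and from 4.86 to 6.37 (median 5.50) in Type 3, a difference of 1.01 ± 0.29 (unadjusted p = 0.00254).

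Among the type I interferon genes, Ifit2, which encodes an antiviral RNA-binding protein, lay from 9.87 to 13.38 (median 10.96) in Other and from 9.38 to 10.50 (median 9.86) in Type 3, a difference of 1.20 ± 0.37 (unadjusted p = 0.00374). Other lines 2, 4, 5 and 6 were above every Type 3 line, and the remaining 3 lay among them. Rsad2, the antiviral protein viperin, lay from 9.38 to 13.94 (median 12.58) in Other and from 7.83 to 11.77 (median 10.89) in Type 3, a difference of 1.61 ± 0.68 (unadjusted p = 0.0268). Here too Other lines 2, 4, 5 and 6 were above every Type 3 line, and Other line 3 lay among the lower Type 3 lines. Cmpk2, a mitochondrial nucleotide kinase, differed by 1.23 (unadjusted p = 0.0117), Oasl1, of the oligoadenylate synthetase family, by 1.01 and the exonuclease Isg20 by 0.99. Mx1, a dynamin-like antiviral GTPase, was 7.13, 10.70, 7.43, 10.32, 9.72, 10.84 and 4.76 in Other lines 1 to 7 and 8.44, 7.87, 7.47, 4.56, 6.67, 9.31, 7.55 and 8.28 in Type 3 lines 1 to 8. It was lowest in Type 3 line 4 and Other line 7 and highest in Other lines 2, 4, 5 and 6. Its difference of 1.18 ± 0.81 (unadjusted p = 0.158) was smaller than the spread between Other lines. It was 1.84 without Other line 7 (limma, unadjusted p = 0.0157) and 0.76 without Type 3 line 4. The same 4 Other lines were thus high in Ifit2, Rsad2 and Mx1.

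Receptors and signalling genes of the interferon pathway had small differences. Of 10 tested, 7 were higher in Other with a median of 0.06. The phosphatase Ptpn2 (0.32) and the receptor subunit Ifnar2 (0.37) had unadjusted p-values below 0.05.

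The antigen presentation values rested largely on Type 3 line 4. Of 16 (of 20 listed) class I genes tested, 14 had the higher mean in Other with a median of 0.20, and 1 had an unadjusted p below 0.05. The median was 0.05 without Type 3 line 4. Tapbp, the chaperone that loads peptides onto class I molecules, lay from 11.67 to 12.20 (median 11.84) in Other, and between 11.46 and 11.88 in 7 Type 3 lines against 10.10 in line 4. Its difference of 0.36 was 0.15 without that line. For Nlrc5, the class I transactivator, the values were 0.45 and 0.26, and for the proteasome activator Psme1 0.26 and 0.13. The same held for class II genes, of which 8 of 9 tested had the higher mean in Other with a median of 0.25, which was -0.05 without Type 3 line 4 and 0.46 without Other line 7. H2-Aa, a class II chain, lay from 10.74 to 12.79 (median 12.25) in Other and at 7.40 in Type 3 line 4, with the other Type 3 lines between 10.70 and 12.77. Its difference was 0.60 over all lines, 0.02 without that line and -0.15 over the PGF lines alone. Ciita, which drives class II transcription, differed by 0.37, by -0.05 without that line and by -0.21 over the PGF lines.

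Of 18 (of 21 listed) chemokine genes tested, 16 had the higher mean in Other, with a median of 0.51 (0.35 without Type 3 line 4 and 0.35 without Other line 6), and 4 of them also stand in the interferon-gamma list. By depot the median was 1.08 over the SCF and -0.02 over the PGF lines. Ccl5 was 8.93, 10.14, 7.61, 8.51, 8.14, 13.57 and 7.93 in Other lines 1 to 7 and lay from 6.82 to 8.58 (median 7.63) in Type 3. Other line 6 was far above every other line and line 2 next, so the difference of 1.63 ± 0.64 (unadjusted p = 0.0183) was 0.91 without line 6. Cxcl11, another ligand of the Cxcl9 receptor, was at 13.42 in Other line 6 and 11.47 in line 2, and from 4.69 to 7.10 in the other Other lines. In Type 3 it lay from 4.80 to 7.91 (median 5.74). The monocyte chemokine Ccl2 differed by 0.55.

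Of 19 (of 26 listed) inflammatory and acute-phase genes tested, 16 had the higher mean in Other, with a median of 0.36 and 0.15 without Other line 6. The list's level was 1.62 in Other line 6. Saa3, a serum amyloid protein, was at 13.90 there, and from 5.64 to 7.42 in the other Other lines. In Type 3 it lay from 5.49 to 6.53 (median 5.82), and its difference of 1.69 was 0.64 without Other line 6. Tnfaip3, the NF-kappa B inhibitor A20, was 7.24, 7.85, 7.22, 7.30, 8.60, 11.85 and 9.52 in Other lines 1 to 7, and from 6.44 to 7.32 (median 7.00) in Type 3. The PGF lines of Other were the 3 highest. Of its SCF lines, line 2 was also above every Type 3 line, and lines 1, 3 and 4 lay near the top of Type 3. The difference was 1.55 ± 0.48 (limma, unadjusted p = 0.00427), and 0.99 without Other line 6. Lif, a cytokine of the IL-6 family, differed by 0.98 and the complement factor Cfb by 1.11. Of the 9 (of 18 listed) macrophage and leukocyte genes tested, 8 had the higher mean in Other, with a median of 0.06. The summed level of the 7 macrophage and leukocyte markers used for the cell type check ran from 32.8 to 37.0 in Other and from 28.9 to 35.1 in Type 3, with Ptprc, Adgre1, Itgam and Tyrobp below the table median in every line. The lysosomal protein Cd68 differed by 0.81 and the receptor Csf1r by 0.45, lowest in Type 3 line 4 at 6.51. The Csf1r difference was 0.12 without that line and 0.05 without Other line 7. Each line was expanded from a singly sorted cell and was not a sample of whole tissue. An array of a whole culture cannot tell fewer cells in a state from less RNA per cell. Any part of macrophages or leukocytes in the inflammatory values was not tested.

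**Figure D3:**
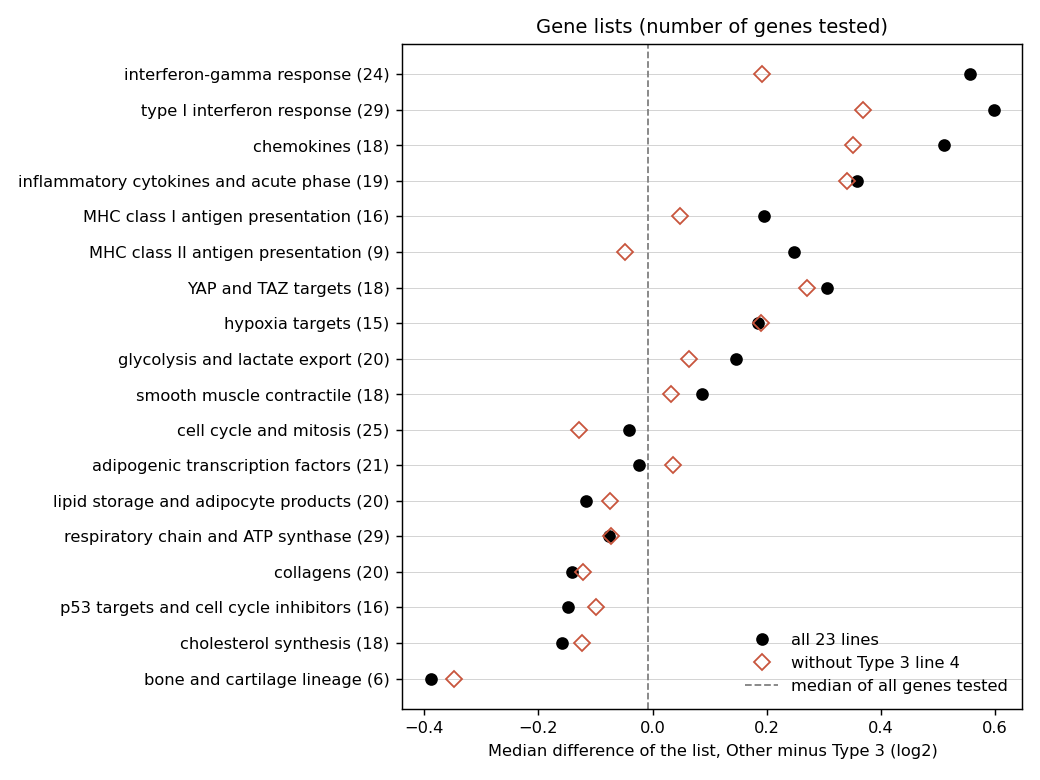
Median over a list's genes of the difference in mean log2 signal, Other minus Type 3 (horizontal), for 18 gene lists with the number of genes tested; filled points are from all lines, open diamonds are without Type 3 line 4, and the dashed line is the median of all genes. When Type 3 line 4 is left out, the interferon-gamma median falls from 0.56 to 0.19 and the type I median from 0.60 to 0.37. The MHC class II median then goes from 0.25 to -0.05, past the dashed line.

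YAP and TAZ are transcription co-activators that respond to cell shape and stretch. Of 18 of their targets, all tested, 16 had the higher mean in Other, with a median of 0.30, and 6 had an unadjusted p below 0.05. Of all genes tested, 47.8% had the higher mean in Other and 4.17% were higher at an unadjusted p below 0.05. Without Other line 7, whose list level was 0.98, the median was 0.13. Ankrd1, a target also known from muscle, was 4.35, 7.33, 7.48, 6.13, 8.30, 9.24 and 8.65 in Other lines 1 to 7 and lay from 4.65 to 6.71 (median 5.48) in Type 3. All Other lines except 1 and 4 were above every Type 3 line (difference 1.73 ± 0.59, unadjusted p = 0.00805). The receptor tyrosine kinase Axl lay from 10.60 to 11.33 (median 10.84) in Other and from 10.00 to 10.97 (median 10.57) in Type 3, a difference of 0.40 ± 0.13 (unadjusted p = 0.00492). The kinase Lats2, which restrains YAP, differed by 0.44, and the matricellular protein Ccn1 by 0.66 (0.43 without Other line 7). The smooth muscle contractile list, with 12 of 18 tested genes higher in Other, had a median of 0.09, which was -0.14 without Other line 7. That line was the highest at 1.94. Tagln, an actin-binding protein, was at 12.62 in Other line 7 and 10.45 in line 3, and at 8.32 or below in the other Other lines. In Type 3 it lay from 6.90 to 9.30 (median 8.45). Its difference was 0.55 over all lines, -0.09 without Other line 7 and -0.02 over the SCF lines. Smooth muscle actin gamma, Actg2, was at 11.03 in Other line 7, with a difference of 0.66 that was -0.29 without it.

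Of 15 (of 18 listed) hypoxia targets tested, 12 had the higher mean in Other with a median of 0.18 (0.06 over the SCF and 0.34 over the PGF lines). Of 20 (of 25 listed) glycolysis and lactate export genes, 14 did so, with a median of 0.15. That median was 0.01 without Other line 5 (11 genes higher), 0.05 without Other line 7 (10 genes), 0.06 without Type 3 line 4 and 0.01 with the acidification score in the model. The glucose transporter Slc2a1 lay from 9.75 to 11.06 (median 10.62) in Other and from 9.48 to 10.36 (median 10.06) in Type 3, a difference of 0.54 ± 0.22 (unadjusted p = 0.0206), with overlap between the groups. Hexokinase 2, Hk2, differed by 0.75, the collagen prolyl hydroxylase subunit P4ha1 by 0.48, the oxidase Ero1a by 0.49 and the lymphatic growth factor Vegfc by 0.85 (unadjusted p = 0.00534). The stress-response factor Atf3 lay from 6.34 to 8.08 (median 7.12) in Other and from 5.33 to 7.03 (median 6.27) in Type 3, a difference of 0.87 ± 0.29 (unadjusted p = 0.00665). Of 29 (of 30 listed) respiratory chain and ATP synthase genes tested, 7 had the higher mean in Other, with a median of -0.08 and 4 lower at an unadjusted p below 0.05. Of all genes tested, 47.8% had the higher mean in Other and 4.63% were lower at an unadjusted p below 0.05. Sdhc, a complex II subunit, lay from 9.01 to 9.45 (median 9.35) in Other and from 9.42 to 9.61 (median 9.54) in Type 3, a difference of -0.21 ± 0.07. Ndufv2 of complex I differed by -0.20 (-0.12 without Other line 6), Atp5c1 of ATP synthase by -0.17 and Cox5b of complex IV by -0.14. Of 24 (of 25 listed) genes of the TCA cycle and fatty acid oxidation, 5 had the higher mean in Other, with a median of -0.05.

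Adipogenic transcription factors had differences of both signs. Of 21 (of 22 listed) tested, 10 had the higher mean in Other, with a median of -0.02, and 3 were lower at an unadjusted p below 0.05 (4.63% of all genes were). Zfp423, a preadipocyte commitment factor, was 6.53, 7.03, 6.84, 6.87, 7.04, 6.12 and 3.49 in Other lines 1 to 7 and lay from 6.82 to 8.02 (median 7.51) in Type 3. Other line 7 was far below the rest, and Other lines 1 and 6 were also below every Type 3 line (difference -1.16 ± 0.41, unadjusted p = 0.01, -0.69 without line 7). Cebpa, a master factor of fat cell differentiation, was 8.37, 9.11, 8.95, 8.90, 7.05, 6.96 and 6.11 in Other lines 1 to 7 and 9.43, 8.18, 8.47, 8.67, 9.59, 9.01, 8.03 and 9.49 in Type 3 lines 1 to 8. The 3 PGF lines of Other were the lowest of all 15, and its SCF lines lay among the Type 3 lines (difference -0.93 ± 0.40 over all lines and 0.15 over the SCF lines). Pparg, its partner, lay from 5.64 to 8.26 (median 7.43) in Other and from 7.09 to 8.93 (median 7.94) in Type 3, a difference of -0.69 ± 0.34 (unadjusted p = 0.0554), and -0.42 without Other line 7. The nuclear receptor Rxra differed by -0.34. Of 20 (of 30 listed) lipid storage and adipocyte genes tested, 6 had the higher mean in Other, with a median of -0.12. The fatty acid binding protein Fabp4 differed by -0.93 (-0.60 without Other line 7), the lipid droplet protein Plin4 by -0.79 and the acyltransferase Agpat2 by -0.23.

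**Figure D4:**
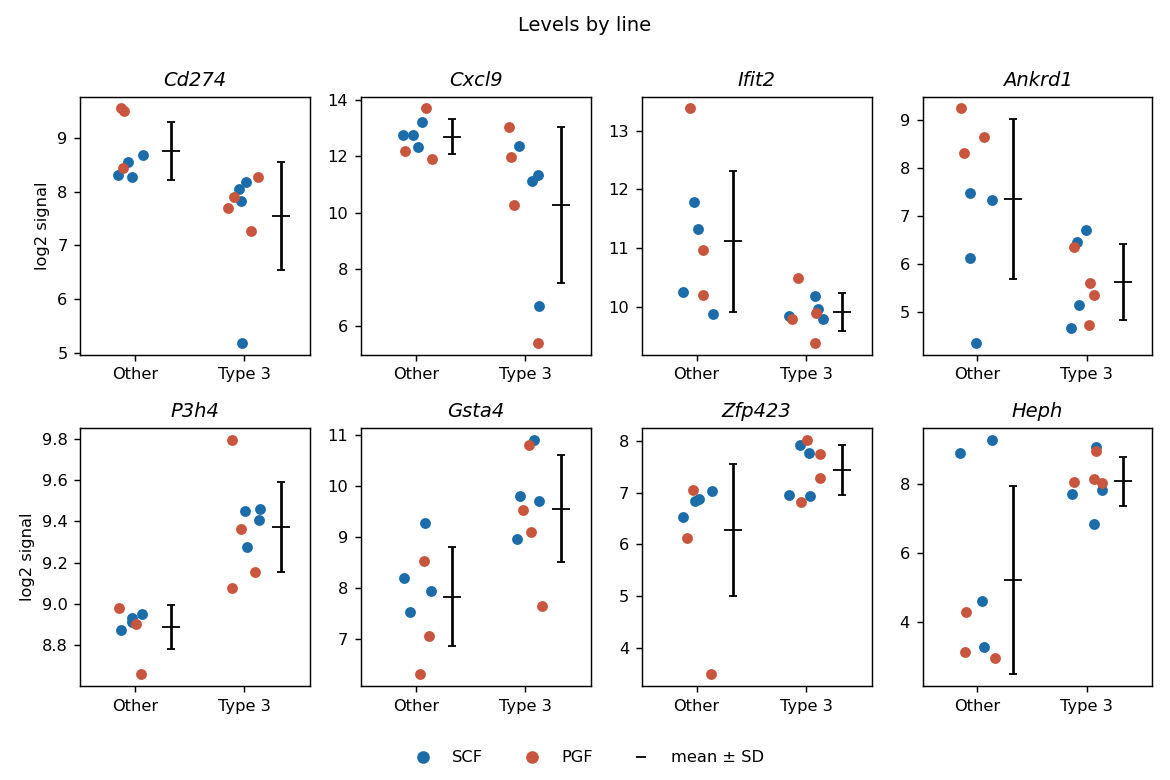
Log2 signal of selected genes in each of the 7 Other and 8 Type 3 lines; points are lines, coloured by depot, and bars are mean and SD, with a separate vertical axis for each gene. P3h4 is lower in every Other line than in every Type 3 line, Cd274 is higher by a margin too small to see, and the other 6 genes overlap.

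Matrix genes also had differences of both signs. Of 20 (of 22 listed) collagen genes tested, 6 had the higher mean in Other, with a median of -0.14. The basement membrane chains Col4a1 and Col4a2 were higher in Other by 0.75 ± 0.30 (unadjusted p = 0.019) and 0.73 ± 0.28 (unadjusted p = 0.0147). Col4a1 lay from 9.77 to 12.11 (median 10.55) in Other and from 9.13 to 10.84 (median 9.98) in Type 3, with overlapping groups. The fibril-associated Col14a1 differed by -0.78 and the microfibrillar Col6a3 by -1.05, the latter with Other line 7 at 7.30 and every other line above 10. The Col6a3 difference was -0.50 without Other line 7. Sned1, a matrix glycoprotein, lay from 6.52 to 11.54 (median 10.36) in Other and from 9.99 to 11.58 (median 11.23) in Type 3, a difference of -1.47 ± 0.52 (unadjusted p = 0.0104), and -0.96 without Other line 7. Pappa, a protease that frees IGFs from their binding proteins, lay from 4.63 to 8.30 (median 6.80) in Other and from 6.49 to 8.73 (median 8.18) in Type 3, a difference of -1.45 ± 0.56 (unadjusted p = 0.0161). Mmp3, stromelysin, was at 9.45 and 8.58 in Other lines 6 and 7, and differed by 1.49 (0.98 without line 6). The small leucine-rich proteoglycans, with 6 of 8 tested higher in Other, were highest in Type 3 line 4 at a list level of 2.04.

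Most cholesterol synthesis genes had the lower mean in Other. Of 18 (of 21 listed) tested, 1 had the higher mean in Other against 47.8% of all genes, with a median of -0.16, and 0 had an unadjusted p below 0.05 in either direction. The median was -0.29 without Other line 6 and -0.01 without Other line 7. It was -0.49 over the SCF lines, 0.14 over the PGF lines and 0.01 with the acidification score in the model. Hsd17b7, an enzyme of the pathway, differed by -0.22. Of 16 (of 18 listed) p53 targets and cell cycle inhibitors, 3 had the higher mean in Other, with a median of -0.15 (-0.07 without Other line 7). Phlda3, a p53 target that restrains Akt, differed by -0.38 and the exonuclease Aen by -0.21. The cell cycle list had a median of -0.04 over all lines and -0.13 without Type 3 line 4, whose list level of -0.64 was the lowest of the Type 3 lines. Of 19 (of 20 listed) Nrf2 targets, 8 had the higher mean in Other, with a median of -0.09. Their largest difference was that of Gsta4, a glutathione transferase for lipid peroxidation products. It was 8.19, 7.95, 7.53, 9.27, 8.54, 7.06 and 6.32 in Other lines 1 to 7 and 10.90, 9.80, 8.95, 9.70, 9.53, 7.64, 9.11 and 10.79 in Type 3 lines 1 to 8. Type 3 line 6 was the one Type 3 line below 8.9, and Other line 4 the one Other line above it (difference -1.72 ± 0.46, unadjusted p = 0.00123). The related Gstt1 differed by -0.76.

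Signalling lists had medians near that of all genes: -0.05 for 31 Wnt genes, -0.02 for 28 BMP and TGF-beta genes and 0.07 for 24 FGF, PDGF and EGF genes. Nkd2, an inhibitor of Wnt signalling, lay from 5.44 to 6.50 (median 5.60) in Other and from 5.89 to 6.95 (median 6.49) in Type 3, a difference of -0.65 ± 0.18 (unadjusted p = 0.00159). All Other lines except line 2 were below every Type 3 line. Bambi, a decoy receptor for TGF-beta family ligands, lay from 6.26 to 9.00 (median 7.88) in Other and from 7.97 to 9.55 (median 8.60) in Type 3, a difference of -0.77 ± 0.27 (unadjusted p = 0.0105), and -0.50 without Other line 6. The ligand Pdgfa differed by -0.64, the receptor Fgfr2 by -0.48 and the growth factor Hgf by -0.66. Of 20 (of 38 listed) Hox genes tested, 10 had the higher mean in Other. Hoxb9 lay from 5.19 to 7.22 (median 6.33) in Other and from 5.56 to 7.89 (median 7.31) in Type 3, where line 1 alone was below 6.8, and differed by -0.96 ± 0.43 (unadjusted p = 0.0346). Hoxc13 differed by -0.40 and Hoxa7 by 0.23.

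Of the remaining lists, the one with the lowest median was bone and cartilage lineage, with 1 of 6 tested genes higher in Other and a median of -0.39. Its Alpl, alkaline phosphatase, lay from 4.58 to 5.83 (median 4.90) in Other and from 4.66 to 8.88 (median 6.04) in Type 3, where line 8 was far above the rest, and the osteoblast factor Sp7 differed by -0.36. Of 12 phagocytic and engulfment genes tested, 4 had the higher mean in Other, 3 of them (Axl, the scavenger receptor Scarf1 and the adaptor Elmo1) at an unadjusted p below 0.05, with a median of -0.07. Of all genes tested, 4.17% were higher at an unadjusted p below 0.05. The unfolded protein response had a median of 0.06 (15 of 20 higher), complement 0.11 (5 of 8, with a median of 0.27 without Other line 7), matrix remodelling 0.06 (13 of 20) and the preadipocyte and progenitor markers 0.05 (11 of 21). The lists not described singly had medians between -0.09 and 0.16.

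The genes of smallest p in each direction are given as values, and none passed. P3h4, a collagen prolyl hydroxylase family member of the endoplasmic reticulum, lay from 8.66 to 8.98 (median 8.91) in Other and from 9.08 to 9.80 (median 9.38) in Type 3, and differed by -0.49 ± 0.10 (limma, unadjusted p = 7.53e-05). Every Other line was below every Type 3 line. Vps54, a subunit of a complex that tethers vesicles at the Golgi, lay from 9.09 to 9.68 (median 9.32) in Other and from 8.59 to 9.13 (median 8.90) in Type 3, with Other line 1 below Type 3 lines 1 and 8 and every other Other line above all of Type 3 (difference 0.46 ± 0.10, unadjusted p = 9.58e-05). Daam2, a formin of the Wnt pathway, lay from 4.26 to 5.21 (median 4.91) in Other and from 5.12 to 5.82 (median 5.59) in Type 3, a difference of -0.77 ± 0.17 (unadjusted p = 0.000118). Besides P3h4, every Other line was below every Type 3 line for Faxc (-0.27), the ubiquitin ligase Cop1 (-0.24) and the circadian factor Arntl2 (-0.21), 4 genes in all (0.0325% of those tested). As for Cd274, such genes can arise by chance among so many. Cop1 and Arntl2 are named because their values were seen. Of the 12 genes of smallest p that were higher in Other, the others were Pstpip1 (0.86), the adaptor Dok1 (0.76), the Polycomb factor Pcgf5 (0.69), Mob3c, Samd4, Morc3, Chd1l, Scnm1, Tent4a, Fnbp4 and Litaf (0.25 to 0.40). Of those lower in Other, the receptor phosphatase Ptprm lay from 6.85 to 8.24 (median 7.53) in Other and from 8.01 to 8.74 (median 8.46) in Type 3 (difference -0.84 ± 0.20). The protocadherins Pcdhb22 (-1.17) and Pcdhb21 (-0.57), the carboxypeptidase Prcp (-0.46), Zfp672, Rfx3, Gtf2h5 and Carf (-0.51 to -0.26) complete that list with Gsta4.

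The group difference was then read within each depot, from a fit with group by depot over 23 lines that was chosen after seeing the data. Within the PGF lines (3 Other, 4 Type 3), 44 genes passed an adjusted p below 0.05 in limma (0.358% of those tested). Of these, 12 rose in Other (0.0975%) and 32 fell (0.26%). Within the SCF lines (4 and 4) 0 passed, with 469 genes at an unadjusted p below 0.05 (3.81%). The test of the difference between depots gave 0 genes, with 1096 at an unadjusted p below 0.05 (8.91%) and a smallest adjusted p of 0.106. The PGF difference was therefore not shown to differ from the SCF one for any gene with all lines in the fit. Without Other line 1 this test gave 2 genes, and 1 gene each without Other line 4, Other line 6, Type 3 line 4 or Type 3 line 7. Within SCF 1 gene passed without Other line 4 and 1 without Type 3 line 4. Of the 44, the SCF difference had the same sign for 24, and the median size was 1.30 within PGF and 0.15 within SCF. The 44 were chosen for passing within PGF, so a larger size there follows in part from the choice. The count was 12 with only the 2 groups in the fit (11 shared with the 44) and 3 with the PGF lines alone (1 shared, Ankrd44). It ran from 11 without Type 3 line 5 to 157 without Type 3 line 4, an SCF line that enters only through the shared spread. It was 13 without Type 3 line 8, 127 without Type 3 line 6, 108 without Other line 6 and 71 without Other line 5. Leaving out Type 2 line 1, 3 or 4 gave 29, 28 and 26.

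Among the genes that fell in the PGF lines of Other, Inhbb, which encodes an activin subunit, was 8.47, 8.47 and 5.22 in Other lines 5 to 7 and 11.22, 10.38, 10.42 and 10.71 in Type 3 lines 5 to 8. The groups were apart, and Other line 7 was lowest (difference -3.29 ± 0.59, adjusted p = 0.0197, limma). Over the SCF lines it differed by 0.31. Cebpa fell by 2.32 ± 0.40 (adjusted p = 0.0161) and differed by 0.15 over the SCF lines. The membrane proteins Tmem176b and Tmem176a, neighbouring genes of similar sequence, differed by -3.35 and -3.10 within PGF. Tmem176b was 5.81, 6.64 and 7.74 in Other lines 5 to 7 and 10.63, 9.57, 10.63 and 9.46 in Type 3 lines 5 to 8. The differences within PGF were -2.25 for the planar polarity protein Prickle2, -2.16 for the guanine deaminase Gda, -2.10 for the disintegrin Adam23 and -2.01 for the dystrophin-complex protein Sspn. They were -1.82 for the protease Ctsh, -1.79 for the transcription factor Snai1, -2.21 for the glypican Gpc6 and -1.83 for the inositol transporter Slc2a13. Another Gpc6 probe set had the opposite sign over all lines.

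Of the 12 that rose, Tnfaip3 rose by 3.00 ± 0.48 (adjusted p = 0.00964), with 8.60, 11.85 and 9.52 in Other lines 5 to 7 and 6.59, 7.21, 7.30 and 6.86 in Type 3 lines 5 to 8. Znhit6, an assembly factor of small nucleolar particles, rose by 1.71. The Wnt receptors Fzd6 and Fzd5 rose by 1.47 and 1.02, and each has another probe set of opposite sign over all lines. The chaperone Dnaja1 rose by 0.62 and Vps54 by 0.61. Vps54 was the one gene of the 44 with the same sign and an unadjusted p below 0.05 over the SCF lines. The opposite sign with an unadjusted p below 0.05 was found for Ttc1 alone.

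**Figure D5:**
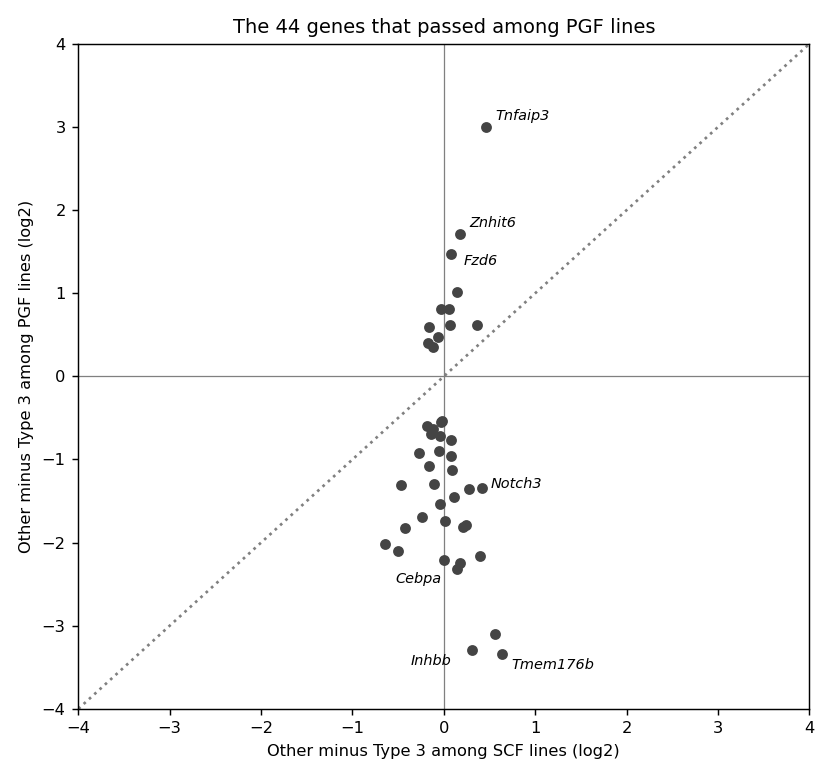
Difference in mean log2 signal, Other minus Type 3, within the SCF lines (horizontal) and within the PGF lines (vertical), for the 44 genes that passed within PGF, 1 point per gene; the dotted line marks equal differences. All points lie within 0.64 of 0 on the SCF axis, while they reach 3.00 and -3.35 on the PGF axis. The genes were chosen by their PGF difference, so larger values on that axis follow in part from the choice.

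Fitted on the PGF lines alone, 3 genes passed in limma, all lower in Other. Heph, an iron-exporting ferroxidase, was 4.61, 8.92, 9.29, 3.29, 2.96, 4.29 and 3.14 in Other lines 1 to 7 and lay from 6.85 to 9.08 (median 8.04) in Type 3. Other lines 2 and 3 lay with Type 3, and the other 5 were below every Type 3 line. Its difference was -2.88 ± 0.96 over all lines (unadjusted p = 0.00688), the largest downward one of all genes tested, and -4.84 over the PGF lines (adjusted p = 0.0259). The others were Ankrd44 (-1.12, adjusted p = 0.0433) and Nkd2 (-1.03, adjusted p = 0.0469).

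The Other lines were less alike than the Type 3 lines, as a description with no test. The groups were formed by clustering the expression data, and Other holds the lines given no numbered type. A smaller spread within Type 3 therefore follows in part from how the groups were made. The SD over lines was larger in Other for 8562 genes (69.6%), with a median SD of 0.24 against 0.19, and 437 genes had an SD above 1 in Other against 219 in Type 3. Without Type 3 line 4 these were 79.4% and 136 genes, and without Other line 7 64.1% and 330 genes in Other. After each gene was centred over the lines, the profiles of line pairs correlated on average by 0.01 within Other (21 pairs, from -0.33 to 0.49) and by 0.20 within Type 3 (28 pairs, from -0.06 to 0.45), and by 0.07 between the groups (56 pairs). These correlations are across genes, which are not independent, and the pairs share lines. The 4 SCF lines of Other correlated by 0.22 to 0.41 with the mean of Type 3, within the range of the Type 3 lines themselves (0.16 to 0.53, each set against the others). The PGF lines 5, 6 and 7 did so by -0.09, -0.01 and -0.40. With the Type 2 mean, Other line 7 correlated by 0.24 and line 5 by 0.17.

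Genes that varied most among the Other lines included Cxcl11 (SD 3.33 against 1.15 in Type 3), Saa3 (2.87 against 0.32) and Heph (2.73 against 0.71), named because their values were seen. Glipr1 was at 10.93 in Other line 4 and 11.18 in line 7, against a Type 3 mean of 5.15. Rps4l, a ribosomal protein S4 paralogue whose probe set may share sequence with other copies, had an SD of 3.10 in Other and 2.95 in Type 3, and Casp1, the inflammasome protease, 2.58 and 2.54. Both genes thus varied between lines in each group.

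The study markers of the gene lists, Wt1, Tagln and Mx1, did not pass between Other and Type 3. Wt1, a mesothelial transcription factor, lay from 3.02 to 4.67 (median 3.53) in Other and from 3.01 to 5.24 (median 3.54) in Type 3, a difference of -0.07 ± 0.27, which was -0.24 without Other line 6 and -0.17 without Type 3 line 4. Apod, a secreted lipocalin, was 10.11, 12.50, 8.66, 12.20, 10.45, 12.11 and 6.61 in Other lines 1 to 7 and lay from 8.02 to 10.32 (median 8.57) in Type 3. Other lines 2, 4, 5 and 6, those high in Mx1, were above every Type 3 line, and line 7 was below all of them (difference 1.5 ± 0.74, unadjusted p = 0.055). The chemokine Ccl8 differed by 0.76, by 1.21 without Other line 7 and by 0.47 without Other line 6. The vasodilator peptide Adm differed by 0.69 (0.45 without Other line 6). The chemokine scavenger Ackr3 differed by 0.06, by 0.27 without Other line 7 and by 0.12 without Type 3 line 4. The desmosomal Pkp2 differed by 0.36 (0.22 without Other line 7). The scavenger receptor Scara5 lay from 4.75 to 12.29 (median 8.34) in Other and from 7.91 to 11.55 (median 9.49) in Type 3 (-1.30 ± 0.85, and -0.69 without Other line 7), and the engulfment receptor Megf10 from 4.18 to 6.31 (median 5.07) and from 5.66 to 6.61 (median 5.90) (-0.76 ± 0.40). For none of these did the difference pass in limma.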

How the data were processed

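Gene expression of 23 lines was measured on mouse arrays, 1 per line. The authors deposited values on a log2 scale, from 2.03 to 14.46, as read from their range since no header states it. MAS5 is named in the submitters' processing notes with no version, and the sources used here do not say how arrays were summarised and scaled. The medians of the arrays ran from 5.09 to 5.16. Precision is limited by the number of arrays, and detection calls were not used.

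Of 45101 probe sets 64 were controls, 34945 had a single symbol in the platform annotation, 932 several and 9160 none. By Entrez ID 34741 matched the RefSeq gene table of GRCm38.p6, which updated 0 symbols. Each of 18193 genes took the probe set of its highest mean. A gene was tested if at least 3 lines exceeded the table median. Groups came from the labels, and depot from the clone name.

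The contrast was fitted with lmFit and eBayes of limma 3.58.1 (R 4.3.3) over all 23 lines with 1 shared spread, adjusted by Benjamini-Hochberg over all genes tested at 0.05. For the scores, exact permutation tests (two-sided) were used with scipy 1.17.1 (Python 3.11.15). Tested on simulated data on 12307 genes with 100 changed per size, 84% were recovered at 2-fold and 98% at 4-fold for Other minus Type 3, and 56% and 87% for the interaction with depot. Of the unchanged genes 10 and 8 were called. The simulated noise was normal and independent, with the same spread in every group and no outlying lines. The real groups differed in spread and held lines that stood apart, so these rates need not hold for the real data.

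The groups compared, the gene lists and the rule for named genes were chosen with earlier results of these data known. The rule named the 12 genes of smallest p in each direction, leaving out clone and predicted names, up to 4 of smallest p from each of 50 lists, and Wt1, Tagln, Mx1, Cxcl9, Apod, Ccl8, Ackr3, Adm, Megf10, Scara5 and Pkp2. Genes passing within PGF were named by largest difference. Not all named genes are printed. Promoters were RefSeq windows. Alternatives covered the lines in the fit, scaling, the filter, the probe set, an offset of 32, depot, clone set and either score as covariates, array weights (whose fit stopped short of full convergence) and leaving out each line.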

Additional observations from a re-analysis of the deposited data

Results flagged for a closer look

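Within each group, the highest and lowest line was set against the rest by Dixon's test at the 95% level. Chance alone marks about 1 in 20 groups. Of 374 groups tested (a gene or list in one of the groups of lines), 37 had an outlying line, and genes of a list move together, so these are not independent.

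Type 3 line 4 was low against the other Type 3 lines for Cd274 (5.19), Nlrc5 (8.70), Psme1 (10.92), Tapbp (10.10), Serping1 (11.66), H2-Aa (7.40) and Csf1r (6.51). Its level was also low over the interferon-gamma (-2.14), MHC class I (-1.13) and cell cycle lists (-0.64). It was high over the small leucine-rich proteoglycans (2.04), the preadipocyte and progenitor markers (0.67), the Schwann cell markers (0.56) and the matrix remodelling list (0.41).

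Other line 6 was high among the Other lines for Ccl5 (13.57), Saa3 (13.90), the inflammatory list (1.62) and the mesothelial markers (0.90). Other line 7 was high for Ccn1 (12.62), Actg2 (11.03) and the YAP and TAZ list (0.98). It was low for P3h4 (8.66), Zfp423 (3.49), Col6a3 (7.30) and the adipogenic transcription factors (-0.63). The remaining Other lines had single values: Sdhc was low in line 5 (9.01), Nkd2 high in line 2 (6.50), S100b high in line 4 (6.55) and the 3 study markers low in line 1 (-0.78).

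In other Type 3 lines, Morc3 was high in line 8 (9.47), as was Alpl (8.88). Line 1 was high for Pcdhb22 (6.15) and low for Lif (4.08) and Hoxb9 (5.56). Arntl2 was high in line 2 (6.12), Epsti1 in line 6 (9.11) and Slc2a13 in line 5 (7.50). The sources of these values were not tested.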

How the results depend on the processing

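The count of 0 genes between Other and Type 3 held in limma under the alternatives tried except the PGF lines alone, where 3 passed, all 3 lower in Other. At an unadjusted p below 0.05 there were 384 genes in the SCF lines alone, 1736 with all probe sets tested, and 769 to 1440 on leaving out each line. Leaving out each line gave 0 to 2 genes for the interaction with depot (841 to 1434 at an unadjusted p below 0.05), 0 to 1 within SCF and 11 to 157 within PGF. The PGF count was 12 with the 2 groups only and 3 with the PGF lines alone. These within-depot counts were added after seeing the data. Leaving out each line gave acidification differences of -1.25 to -0.71, differentiation differences of -0.50 to -0.14, a larger SD in Other for 64.1 to 79.4% of genes, and a mean pair correlation in Other minus Type 3 of -0.24 to -0.12. The list median ran from 0.19 to 0.62 for interferon gamma and from 0.37 to 0.73 for type I interferon.

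Of 117 gene results under the alternatives, 2 passed in one (Heph and Nkd2) and 8 changed sign in at least one. In the SCF lines alone Wt1 was 0.16, Tagln -0.023, Cebpa 0.15 and Actg2 -0.089. In the PGF lines alone Ccl8 was -0.61, Ackr3 -0.64, H2-Aa -0.15 and Ciita -0.21. On leaving out each line, Tagln ran from -0.091 (without Other line 7) to 0.84, Actg2 from -0.29 (without Other line 7) to 1.01 and Ciita from -0.049 (without Type 3 line 4) to 0.55. Wt1 reached 0.00 without Other line 3, 0.04 without Other line 5 and 0.15 without Type 3 line 7, and Ackr3 ran from -0.24 (without Other line 4) to 0.27, also below 0 without Other line 2 or Type 3 line 1. The causes of these changes were not tested. No paired analysis was possible because lines were numbered in accession order, which pairs nothing.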
